A study of Homo sapiens with 3 samples.

Results

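AJAP1 and PRDM16 are neighbouring protein-coding genes near the start of human chromosome 1 that are among the 10 genes with most entries in a list of chromatin loops from HCT116 colorectal carcinoma cells. The 2 genes were chosen by the number of loops listed at them in the same list that is described here. A loop was counted at a gene when the 5 kb just inside its left or right position overlapped the gene body. By this rule 2562 of 279618 listed loops had an end at either gene, 1480 at AJAP1 and 1082 at PRDM16, which is 8.99% of the 28488 loops of chromosome 1. The number of loops is therefore a description of how the genes were picked and not a finding.

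The loops come from Hi-C, in which chromatin is crosslinked, cut and religated so that sequencing shows which sites were close in the nucleus. Hi-C libraries were made from 3 groups with 1 library each, namely an ORC2 deletion clone made by CRISPR/Cas9, an ORC2 rescue clone that carries ORC2 with its untranslated regions on a vector, and the parental line, called wild-type. All 3 groups share the p53-/- background of the parental HCT116 line, and the deletion and the rescue are each a clonal line, so a difference between clones cannot be told apart from an effect of ORC2. ORC2 belongs to the origin recognition complex, the proteins on which replication origins are licensed, and the series asks which features of chromosome structure depend on it. The authors' deposited table gives a left position, a right position and a class word for each loop, in hg38 coordinates per its name, with no loop strength and no value per library. Depth is therefore unknown, no error between libraries can be given, and the sources used here do not say which library stands behind a gained or lost class. The authors' class words are conserved_gain, conserved_lost and not_conserved, and loops with conserved_gain or conserved_lost are called gained or lost below. What conserved means in these words is not given in the sources used here. Whether AJAP1 or PRDM16 was expressed in these cells was not measured in the files used.

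Chromatin loops form when cohesin extrudes DNA until it meets a barrier such as bound CTCF, and when active or repressed segments of like state come together. AJAP1 encodes a transmembrane protein of adherens junctions and the basolateral membrane of epithelial cells, first described as Shrew-1. PRDM16 encodes a zinc finger transcriptional regulator with a PR domain, known for directing brown and beige fat cell fate and for maintaining haematopoietic stem cells.

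AJAP1 spans 138 kb (hg38 chr1:4654609-4792534) and PRDM16 spans 369 kb (chr1:3069203-3438621), with 1216 kb between them. RefSeq places AJAP1 on the plus strand. The annotation used gives gene bodies without exons, so ends could not be placed in exons, introns or untranslated regions. A stretch of the AJAP1 promoter (RefSeq, GRCh38.p14, plus strand) is shown because few loop ends lay at the start of the gene. Capitals mark a GGGCGG box, the kind bound by Sp1.
AJAP1 promoter, chr1:4654542-4654571: gtgagccgggccGGGCGGgcggagttggga
The 300 bases from 250 before to 50 after the AJAP1 start were 80.7% G and C, against a median of 58.7% over 34961 promoters of the same length, and held 40 CG pairs against a median of 14. Searched on both strands, CCCTC, the letters for which CTCF is named, matched 2 times, and 71.3% of all promoters held it at least once. GGGCGG matched 5 times, with some matches overlapping each other or a CCCTC match, and 45.0% of promoters held it. GATC, the site cut by the DpnII enzyme used for these libraries, had no match in the window, and 41.7% of promoters held one. A match is a string of letters and not evidence of a bound factor. Only 11 of the 1480 AJAP1 loops had an end over this window, 10 of them with it as the left end.

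By number of listed loops AJAP1 ranked 3rd and PRDM16 6th of 9909 protein-coding genes with a listed end, where the median gene had 15 loops. Genes beside them in this order included ASIC2 (2190 loops), an acid-sensing ion channel gene, GABRG3 (1302), a GABA receptor subunit gene, SYN3 (1202), a synapsin gene, and SEMA6D (1004), a semaphorin gene. Those 4 genes are all longer than AJAP1 and PRDM16, at 551 to 1144 kb. Per 5 kb of gene body AJAP1 had 53.7 loops and PRDM16 14.6, against a median of 0.976 over the 3670 genes of at least 50 kb with a listed end, among which AJAP1 ranked 1st and PRDM16 20th. Short genes can score higher, because a single 5 kb end can cover a whole gene: over genes of every length AJAP1 ranked 246th and PRDM16 1318th. The genes nearest to AJAP1 in loops per 5 kb were all short ones, NELFE, RPL10, ENC1, APRT and HOXD9, with 24 to 142 loops each. Those nearest to PRDM16 were KCNG1, HLA-DQA2, MATN1, AMN and TLCD3B, with 17 to 84 loops.

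**Figure D1:**
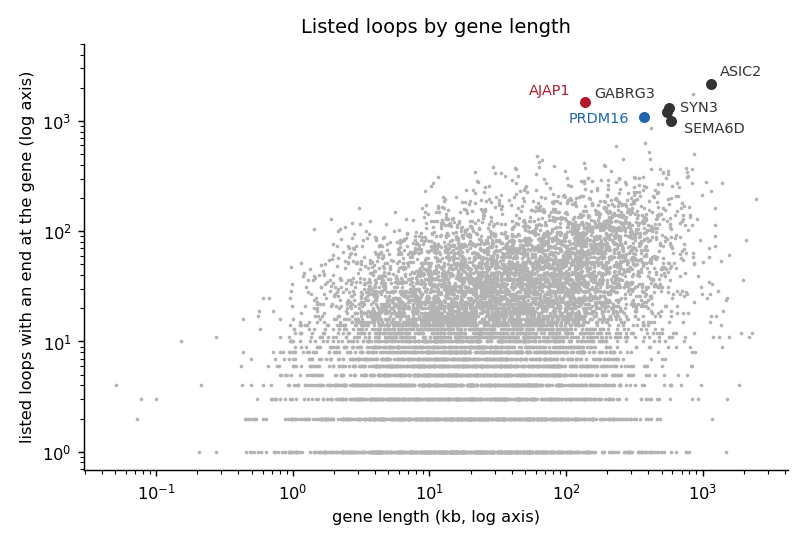
Number of listed loops with an end at each protein-coding gene against gene length in kb, both on log axes, with 1 point per gene that has a listed end. AJAP1 (red, 1480 loops) and PRDM16 (blue, 1082 loops) lie among the 7 genes with at least 1000 loops, of which AJAP1 is the shortest.

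Most loops of AJAP1 and PRDM16 left the gene. A count of 78 of 1480 AJAP1 loops, 5.27% (Wilson 95% interval 4.24 to 6.53%), and 141 of 1082 PRDM16 loops, 13.0% (11.2 to 15.2%), stayed inside with both ends. In ASIC2 this share was 96.5%, in SYN3 91.9%, in GABRG3 88.4% and in SEMA6D 86.9%. OCA2 (88.0%), a pigmentation gene, also kept most loops inside. RPTOR, which encodes a subunit of the growth regulator mTORC1, had 1 of 867 loops inside. Gene length differs between these genes. AJAP1, at 138 kb, is shorter than its median loop of 267 kb, so most of its loops could not have both ends inside. For the other genes the part of length in the share was not tested: OCA2 is 380 kb long and RPTOR 422 kb, against 369 kb for PRDM16. The intervals are for counting error and take loops as independent, although neighbouring loops are not, and the shares between genes were not tested.

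**Figure D2:**
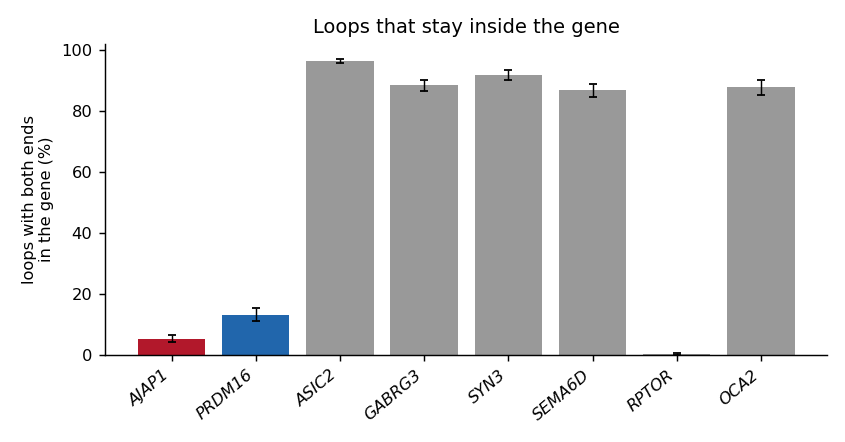
Share of each gene's listed loops with both ends in the gene, in percent, for 8 of the 10 protein-coding genes with most listed loops, AJAP1 and PRDM16 first. Bars start at 0 and error bars are Wilson 95% intervals. AJAP1 (5.27%), PRDM16 (13.0%) and RPTOR lie low, and the other 5 genes shown lie between 86.9 and 96.5%.

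The loops of the 2 genes pointed in opposite directions. At AJAP1, 1079 loops (72.9%, 70.6 to 75.1%) ran from the gene to a partner at a higher coordinate and 323 (21.8%, 19.8 to 24.0%) to one at a lower coordinate. At PRDM16, 28 loops (2.59%, 1.80 to 3.71%) ran to a higher coordinate and 913 (84.4%, 82.1 to 86.4%) to a lower one. The partners of AJAP1 reached from position 4268087 to 5413587, a stretch of 1146 kb, and those of PRDM16 from 2786257 to 3646346, a stretch of 860 kb.

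**Figure D3:**
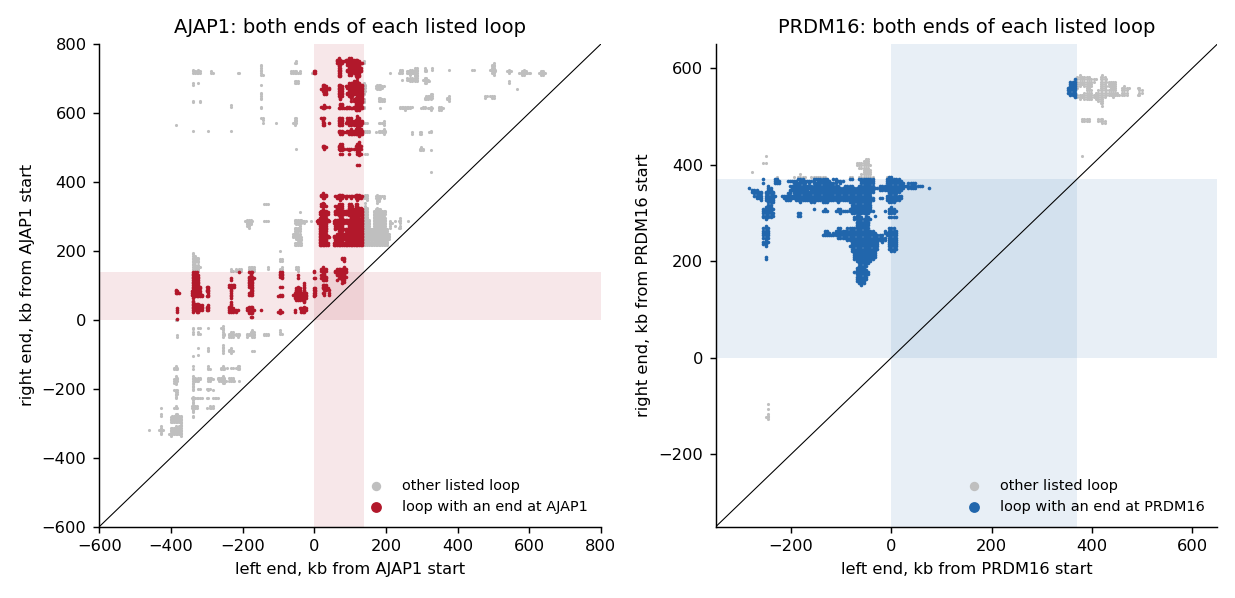
Left end against right end of each listed loop around AJAP1 (left panel) and PRDM16 (right panel), in kb from the gene's start, with loops that have an end at the gene in colour and other listed loops in grey. Shaded bands mark the gene body. AJAP1 loops form a column of right-hand partners and a row of left-hand ones, whereas PRDM16 loops form 1 large patch to the left of the gene body and a small one to its right.

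Right of AJAP1 the partners fell into a near and a far zone. In the near zone, up to position 5063487, 595 loops of 55.4 to 343 kb joined the gene to ends between its own border and 5021864. In the far zone, 484 loops of 326 to 723 kb joined it to ends between 5100111 and 5413587. No partner end lay between 5021864 and 5100111. Of the near loops, 409 ended 100 to 200 kb past the gene, and of the far loops, 208 ended 500 to 600 kb past it. Left of AJAP1, 94 loops reached a near stretch, 95 a middle stretch and 134 a far stretch around 4268087 to 4364496, at median lengths of 115, 274 and 406 kb. The borders of these stretches lie in the middle of the widest gaps between the partner ends and were set after the ends were seen.

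These partner stretches were also joined to each other without AJAP1. Over the gene, 256 listed loops passed with both ends outside it. Loops from the near left stretch to the near right zone numbered 89, and 33 ran from the near left stretch to the far right zone. Even the outermost stretches met, with 25 loops of 844 to 1063 kb from the far left stretch to the far right zone. Within the near right zone alone there were 358 loops, at a median length of 95.4 kb, and 224 joined the near and far right zones. Each of these 6 segments, the gene included, was joined to each other one by listed loops, from 20 loops between the far left and near left stretches up to 595 between the gene and the near right zone.

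PRDM16 had another layout. Its body was divided in the middle of the widest gap between its loop ends, at position 3182596. Assigned by the middle of each 5 kb end, 939 loops ran from the stretch left of the gene to the part of the gene above that position, and 115 ran from the first part of the gene to that same last part. Inside the left stretch there were 7 loops, and inside the last part of the gene none. Counted by overlap instead, all 141 loops with both ends in PRDM16 had their left end in the first part of the gene and their right end in the last part. The left end at chr1:3065203-3070202 overlaps the start of the gene but has its middle before it. Its loops to the last part are therefore among the 939 by the middle and among the 141 by overlap. The shortest PRDM16 loop was 175 kb long and the shortest internal one 217 kb. A further 64 listed loops passed over the whole gene.

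Neither gene was covered evenly by loop ends. Each gene body was divided into 10 equal segments, numbered from the low coordinate. In AJAP1 segment 1 held 25 of 1558 ends (1.60%) and segment 4 held 19 (1.22%), whereas segment 6 held 277 (17.8%) and segment 9 held 255 (16.4%). In PRDM16 segment 10 held 457 of 1223 ends (37.4%), segment 9 held 223 (18.2%) and segment 1 held 130 (10.6%), while segment 3 held 1 and segment 4 held 0. No loop end of any kind lay on the 65.0 kb of PRDM16 from 3150121 to 3215071. AJAP1 had no such stretch, since 5 kb ends covered its whole body.

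**Figure D4:**
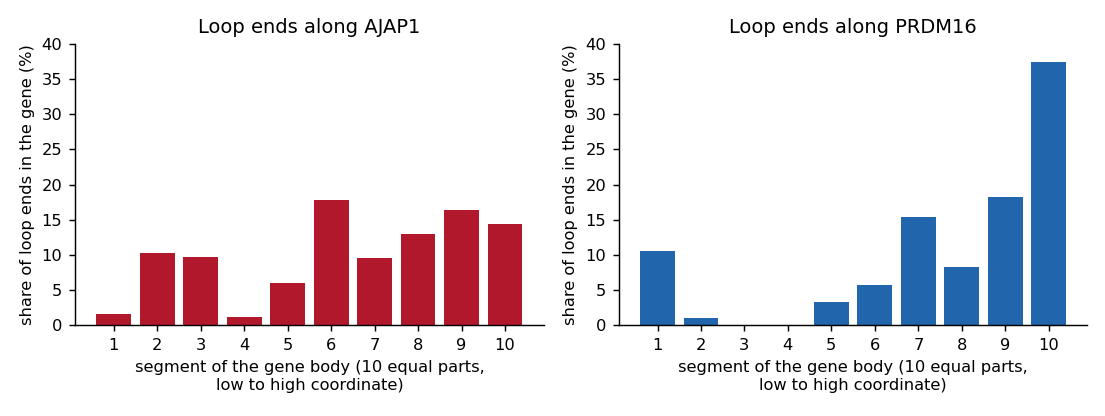
Share of the loop ends inside each gene in 10 equal segments of its body, in percent, from the low to the high coordinate, with 1558 ends in AJAP1 (left) and 1223 in PRDM16 (right). PRDM16 ends are most frequent in segment 10 (37.4%) and absent from segment 4, and AJAP1 ends are fewest in segments 1 and 4.

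Single 5 kb ends carried many loops. The end of AJAP1 with most loops (chr1:4774638-4779637) was the left end of 82 loops of 97.1 to 634 kb, each with a different right end, and the next (chr1:4779401-4784400) of 77. Over the 29 distinct left ends in AJAP1 the median was 41 loops per end, and over its 29 right ends it was 15. In PRDM16 the end with most loops (chr1:3416745-3421744) was the right end of 58 loops of 277 to 635 kb, and over the 51 distinct right ends the median was 14 loops. The 21 left ends in PRDM16 had a median of 3 loops and at most 29. Neighbouring left ends in AJAP1 lay 4782 bases apart at the median, and neighbouring right ends in PRDM16 4548 bases, close to the assumed width of an end.

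Loops with both ends within 10 kb of those of another loop were joined into blocks, since such loops are neighbours on the contact map. The 1480 AJAP1 loops belonged to 42 blocks and the 1082 PRDM16 loops to 10, of which 5 and 2 held at least 100 loops. A single block of 987 loops held 930 of the PRDM16 loops, the 4th largest of 15919 blocks on all chromosomes, where the median block had 5 loops. Its left ends began between 2850420 and 3131171 and its right ends stopped between 3220071 and 3481703, and 25.7% of the 3840 possible pairs of its ends were listed. The largest AJAP1 block had 762 loops (7th largest), 422 of them at the gene, and 61.8% of its 1233 possible pairs were listed. The second, with 306 loops of 475 to 691 kb, joined AJAP1 to the far right zone.

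PRDM16 loops were long and AJAP1 loops had a wide range of lengths. The median AJAP1 loop was 267 kb (quartiles 169 and 470 kb, range 27.4 to 723 kb) and the median PRDM16 loop was 378 kb (quartiles 306 and 485 kb, range 175 to 635 kb), against 234 kb over all listed loops (quartiles 133 and 375 kb) and 233 kb on chromosome 1. Loops over 500 kb made up 21.8% at AJAP1 and 20.9% at PRDM16. Loops under 100 kb made up 8.24% at AJAP1, and there were 0 of 1082 at PRDM16, which allows a share of up to 0.277%. AJAP1 lengths were sparse between 300 and 350 kb (3.72% of loops) compared with 200 to 250 kb (13.0%) and 400 to 450 kb (7.64%). Loops are not replicates, so these medians carry no test.

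**Figure D5:**
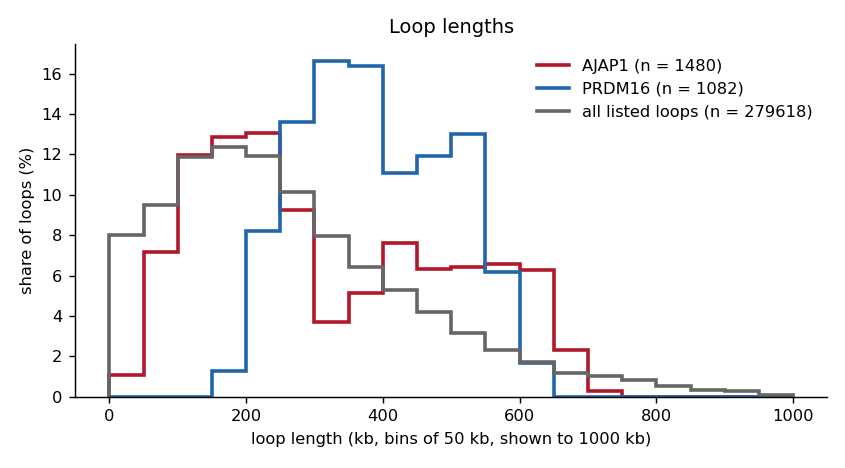
Share of listed loops by length in bins of 50 kb, in percent, for AJAP1 (red, 1480 loops), PRDM16 (blue, 1082 loops) and all 279618 listed loops (grey). AJAP1 shows a dip at 300 to 350 kb (3.72%), and no PRDM16 loop is shorter than 150 kb.

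The stretch reached by AJAP1 loops holds no annotated protein-coding gene but AJAP1 itself, so none could lie at their far ends. Of 1402 loops with 1 end in AJAP1, 92 had a long non-coding RNA gene, whose roles are not described here, at the other end (6.56%, 5.38 to 7.98%). These were LINC02781 (chr1:4973391-4983958, 38 loops), LINC01777 (chr1:4412051-4424684, 24 loops), LOC102724429 (14), LOC105376682 (7), LOC105376674 (6), LOC124904589 (3) and LOC124904578 (2). The remaining 1310 loops ended where no gene is annotated.

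PRDM16 loops met protein-coding genes at 152 of 941 outer ends, 16.2% (13.9 to 18.6%). ACTRT2, an actin-related gene of sperm that is 1.44 kb long (chr1:3021467-3022903), was the partner of 87 loops of 215 to 422 kb, 87 of its own 105 listed loops. Because 1 end can cover it, ACTRT2 stands for its 5 kb surroundings. PRDM16-DT, the divergent transcript beside the PRDM16 start, lay at 19 ends, and the predicted gene LOC124903827, which overlaps the start of PRDM16, at 27. The overlapping lncRNA genes LOC124903825 and LOC124903826 shared the same 19 loops. TTC34 was met by 12 loops of 600 to 635 kb. On the high-coordinate side the partners were MEGF6, an EGF-domain protein gene (16 loops), WRAP73 (10) and TPRG1L (7). In 770 of the 941 loops no gene was annotated at the outer end.

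AJAP1 and PRDM16 were not joined to each other. Of all listed loops, 0 had an end in both genes, and none crossed from below 3.7 Mb to above 4.2 Mb. Between those positions lay 2 loop ends, while the 100 kb window from 4.7 to 4.8 Mb, most of it in AJAP1, held 1323 ends, the second most of the 11572 windows with any, and the window from 3.4 to 3.5 Mb at the end of PRDM16 held 721, the 9th most. A loop between the genes would have to be longer than 1216 kb, and only 919 listed loops in the genome (0.329%) and 8 on chromosome 1 were. A count of 0 is therefore not distinguishable from the scarcity of loops of that length.

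Between the 2 genes, listed loops became rare past WRAP73 and up to 4.2 Mb. Closer to AJAP1 they were frequent again, with 138 ends from 4.2 to 4.3 Mb and 419 from 4.3 to 4.4 Mb. The median window of 100 kb with any held 24. TP73, the p53-family gene next to WRAP73, had 2 listed loops, and CCDC27, SMIM1, LRRC47, DFFB and C1orf174 had 0. Of 23 protein-coding genes with a body between 2.5 and 5.5 Mb, 17 had a listed end. Apart from AJAP1 and PRDM16 the highest counts there were at PLCH2, a phospholipase C gene (179 loops), MEGF6 (171), LOC124903827 (111) and ACTRT2 (105). ARHGEF16, a guanine nucleotide exchange factor gene 16 kb past PRDM16, had 84 loops and shared none with it, and 72 of the 171 MEGF6 loops had both ends in MEGF6.

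In the authors' deposited table, every loop at either gene carried the class word not_conserved, and none carried conserved_gain or conserved_lost, called gained and lost here. Classed as gained were 0 of 1480 loops at AJAP1 and 0 of 1082 at PRDM16 in the authors' deposited table, where gained loops were 1.96% and lost loops 0.196% of all listed loops. A count of 0 allows a share of up to 0.203% at AJAP1 and 0.277% at PRDM16 if loops were independent, and the share over all loops would give 29.1 and 21.3 gained loops. Lost loops also numbered 0 at both genes in the authors' deposited table, where the overall share would give 2.90 and 2.12, too few for the count of 0 to stand apart. Since neighbouring loops are not independent, blocks are given as well: of 469 blocks with at least 100 loops, 146 (31.1%) held a gained or lost loop per the authors' deposited table. AJAP1 and PRDM16 together touch 7 of the blocks with at least 100 loops, and none of the 7 held a gained or lost loop in the authors' deposited table. AJAP1 was picked knowing that it had no such loop, and both genes were chosen with earlier results of these data known. The counts of 0 at AJAP1 and at PRDM16 are therefore a description. The numbers that the overall share would give are no test of them, for gained or for lost loops. The file's name says that it lists changed loops, so not conserved is not taken to mean unchanged. Nor is a count of 0 taken to mean that no loop was gained or lost in a wider sense, because the meaning of conserved is not given.

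The same class held for the whole neighbourhood. All 4311 listed loops that touch 2.5 to 5.5 Mb, 15.1% of those on chromosome 1, were classed as not conserved in the authors' deposited table. The first gained or lost loop of chromosome 1 in the authors' deposited table began at 8.10 Mb. Before it lay 6075 listed loops (21.3% of the chromosome's), which held no gained or lost one by this choice of border. Chromosome 1 as a whole had 442 gained loops (1.55%) and 30 lost (0.105%) in the authors' deposited table. The nearest gained loop (chr1:8099703-8175154) in the authors' deposited table lay 3307 kb past AJAP1 and 4661 kb past PRDM16, and the nearest lost loop (chr1:15599215-15751317) 10807 kb past AJAP1.

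Among genes with as many loops the class varied. Of the 11 protein-coding genes with at least 500 listed loops, 5 (45.5%) had a gained or lost loop in the authors' deposited table, among them ASIC2 (16 gained, 3 lost), SYN3 (8 and 0), RPTOR (4 and 3) and OCA2 (1 and 0). AJAP1, PRDM16, GABRG3, SEMA6D and the potassium channel gene KCNQ1 were among those with none per the authors' deposited table. Over all genes with a listed end, 12.7% had a gained end and 1.85% a lost one in the authors' deposited table.

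For relatives and functional partners of the 2 genes the counts are given as a description, because AJAP1 and PRDM16 were picked for theirs and nearly any other gene has fewer. Of all 19974 annotated protein-coding genes, 9909 (49.6%) had a listed end, with a median of 15 loops among those. Of 15 other PRDM family genes, 8 (53.3%) had one, with a median of 44 loops and at most 74 (PRDM11). PRDM1, the regulator of plasma cell fate also called BLIMP1, had 58 listed loops, of which 8 were gained in the authors' deposited table, and MECOM, the closest relative of PRDM16, had 36. Among 13 genes for PRDM16 partners and thermogenic targets, 5 (38.5%) had a listed end, led by ZNF516 (80 loops, 6 of them gained in the authors' deposited table) and CEBPB (48). PPARG, PPARGC1A, UCP1 and CIDEA, all central to brown fat, had 0, and so had EHMT1, CTBP2, DIO2 and MED1. EBF2 of the same list had 19, and CTBP1 and PPARA had 1 each. Of 14 adherens junction and basolateral genes, 9 (64.3%) had a listed end, with a median of 15 loops: NECTIN1 had 136, BSG, which encodes the AJAP1-binding protein basigin, 33, and the E-cadherin gene CDH1 20. CTNND1 had 3 gained loops and VCL 1 in the authors' deposited table, and no member of any of these lists had a lost one. Per that table, genes with a gained end were 1 of 8, 1 of 5 and 2 of 9 with a listed end, in the order of the lists. Over all genes with a listed end 12.7% had a gained end, and 1.96% of all listed loops were gained. A lost end was found at only 1.85% of those genes, so its absence from lists this short says nothing about them.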

How the data were processed

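Hi-C libraries of HCT116 p53-/- cells were analysed from a loop list, the authors' deposited table, which holds hg38 positions, going by its file name, and class words. Bowtie, hg19 and hg38 are listed, with no role, per the submitters' processing notes. How loops were called, normalised, thresholded and compared is not given in the sources used here, so a coverage or copy number difference could enter the list. Of 279669 rows, 49 held no class word and 2 were repeats. Per-sample columns of a compartment table (6, named S1 to S3) match no sample label and were not used, so compartment scores from 2.5 to 5.5 Mb were not analysed. Genes came from RefSeq GRCh38.p14.

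Ends were read as 5 kb inward. Loops were joined into blocks at 10 kb. Shares carry Wilson 95% intervals, and a count of 0 the limit that 3 counts make, both for counting error only. With 1 library per group no test was possible. Named genes were the members, genes between 2.5 and 5.5 Mb, the 10 genes with most loops at the other end, the 10 with most listed loops, the 5 nearest in loops per 5 kb, and list members with a listed end, plus a few outside this rule (genes of the lists at 0 and KCNQ1) chosen after their values were seen. Some genes that met the rule are not reported here. Members and lists were chosen with earlier results of these data known. Counting and joining were tested on simulated data, and Python 3.11.15, pandas 2.3.3 and scipy 1.17.1 were used.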

Additional observations from a re-analysis of the deposited data

How the results depend on the processing

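Alternatives were a 10 kb end, the listed position alone, leaving out loops shorter than 100 kb, widening each gene by 10 kb, and leaving out the 50 kb window with most of the gene's loop ends. Of 44 values recomputed, 36 stayed within 1.5 times a count or inside the interval of a share or median, among them every gained share (0) and every count of loops joining the genes (0). Those zeros could not move under any alternative, so they say nothing about the processing. No listed loop touching 2.5 to 5.5 Mb was classed as gained in the authors' deposited table, and none crossed from below 3.7 Mb to above 4.2 Mb. The other 8 moved. Without the densest window, 872 loops were left at AJAP1 and 669 at PRDM16, by construction, the internal share at AJAP1 was 3.21% and the PRDM16 median 333 kb. Without loops shorter than 100 kb, also by construction, the AJAP1 median was 290 kb and its internal share 0.884%. Read at the listed position alone, a narrower target, the internal share was 4.23% at AJAP1 and 10.5% at PRDM16. No paired analysis was possible because there is 1 library per group and loops have no value per library. How sequencing depth bears on the number of listed loops could not be examined.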
